A study of Mus musculus with 26 samples.

Results

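Oocytes of the mouse that carried an HD mutation in Tet3 were compared with oocytes that had lost the low-complexity domain (LCD) of Tet3 without it. The comparison rests on 7 of the 26 deposited columns of the series, which hold 24 distinct libraries. HD mutant libraries 1 to 3 have the genotype Tet3 LCD HD Mutf/f with Zp3-Cre and belong to batch 2. HD mutant libraries 4 and 5 have the same genotype, and no batch is stated for them. LCD KO libraries 4 and 5 have the genotype Tet3 LCDf/f with Zp3-Cre and belong to batch 2. The other 5 LCD KO libraries (1 to 3 of batch 1, 6 and 7 of batch 3) have that genotype too and served to check directions. WT libraries carry Tet3 LCDf/f without Cre, and batch 2 holds 1 of them, WT 4. Zp3-Cre is a transgene that drives Cre recombinase from the promoter of a zona pellucida gene in growing oocytes, so HD mutant and LCD KO share the Cre and differ in the Tet3 allele. The labels do not define HD, and the design text of the series names the group as an LCD knockout with an HD mutation. Each library held a pool of 10 oocytes at the germinal vesicle (GV) stage, when growth is complete and meiosis has not resumed. The labels call the pools biological replicates but do not tie them to animals, so p-values measure the spread between pools. All 12376 genes that passed a filter on low counts, of 24450 features other than spike-ins, were compared.

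TET proteins are dioxygenases that oxidize 5-methylcytosine in DNA, with iron held by a conserved His-x-Asp motif. Whether HD stands for that motif is not said in the labels. A low-complexity insert divides the catalytic domain of TET proteins. The oocyte builds its methylation during growth, chiefly through Dnmt3a, and Tet3 is the TET protein known for its abundance in the oocyte and for acting in the zygote. The title of the series links the LCD of Tet3 to protection of oocyte methylation from oxidation.

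Several features of the libraries stand beside every result. Total counts were 5564240 to 7250141 in HD mutant 1 to 3, 1838824 and 2242310 in HD mutant 4 and 5, 7698208 and 7833087 in LCD KO 4 and 5, and 5403852 in WT 4. HD mutant 1 stood apart from HD mutant 2 and 3. It lay at least 2-fold above or below both of them in 965 of 12023 genes (8.03%), of which 760 were below, whereas HD mutant 2 did so in 153 genes (1.27%) and HD mutant 3 in 148 (1.23%). Across genes, the log2 levels of HD mutant 2 and 3 correlated with a Pearson r of 0.985 and those of HD mutant 1 and 2 with 0.961. The r of HD mutant 4 and 5 with HD mutant 1 to 3 was 0.846 to 0.913. Rn45s, a ribosomal RNA precursor, took 1.14% of the counts in HD mutant 1, 2.05% and 2.69% in HD mutant 2 and 3, 0.0893% and 0.0641% in HD mutant 4 and 5, and 2.45% in both LCD KO 4 and 5. The part of these differences in the results was not tested, and results are given with and without HD mutant 1 where it decides them.

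The labels were checked against 3 measures. Tet3 had 72.1, 198 and 191 CPM (counts scaled to the same library size) in HD mutant 1 to 3 and 164 and 200 CPM in LCD KO 4 and 5, against 427 CPM in WT 4. HD mutant 4 and 5 had 51.7 and 70.3 CPM, and the other 5 LCD KO libraries 44.0 to 73.9 CPM. The HD mutant and LCD KO levels of Tet3 overlapped, with a log2 fold change of -0.24 ± 0.31 (standard error; adjusted p = 0.831, edgeR quasi-likelihood test). Without HD mutant 1 it was 0.10. The count is per gene, so it does not show which domain of the transcript was kept. The table also has a row for Cre, which held 0 counts in HD mutant 1 to 3 and in LCD KO 4 and 5 but 69 and 49 counts in HD mutant 4 and 5 and 44 to 82 in the other LCD KO libraries. The Cre row therefore does not support the Cre label of the batch 2 libraries. Mt1, a metallothionein gene, separated every library labelled with Cre among these groups from WT. It had 436, 311 and 338 CPM in HD mutant 1 to 3, 495 and 622 CPM in HD mutant 4 and 5, and 173 to 419 CPM in the 7 LCD KO libraries, against 0.313 to 1.79 CPM in the 6 WT libraries.

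All 10 markers of oocyte identity, among them Zp3, Gdf9 and Nobox, were detected in every library, with a summed level of 16440 to 24690 CPM in HD mutant 1 to 3 and 22480 and 23900 CPM in LCD KO 4 and 5. The 27 granulosa and cumulus markers summed to 197 to 236 CPM in HD mutant 1 to 3, of which 20 to 22 were detected, and to 270 and 285 CPM in LCD KO 4 and 5, of which 23 were detected. Esr2 was the most abundant of them, at 104 to 126 CPM in HD mutant 1 to 3 and 143 to 152.5 CPM in LCD KO 4 and 5. Inha had 6.24 to 26.5 CPM in HD mutant and 18.8 to 42.1 CPM in LCD KO, Cyp19a1 25.6 to 30.6 CPM in HD mutant and 29.7 to 32.0 CPM in LCD KO, and Nr5a2 18.7 to 28.9 CPM in HD mutant and 18.7 to 23.0 CPM in LCD KO. Hsd3b1 had 2.08 to 7.26 CPM in HD mutant and 11.8 to 13.45 CPM in LCD KO. Nr5a1 had 0.297 to 1.86 CPM in HD mutant and 2.56 to 3.28 CPM in LCD KO. Amh lay the other way, at 0.621 to 2.21 CPM in HD mutant and 0.222 to 0.226 CPM in LCD KO. Kitl and Amhr2 were also lower in HD mutant without overlap, and Ptgs2 was higher. In edgeR none of the 14 members tested was called, and Hsd3b1, Nr5a1 and Amh had an unadjusted p below 0.05, against 11.6% of all genes. Fshr, the receptor for follicle-stimulating hormone, had at most 0.891 CPM in HD mutant 1 to 3 and 1.36 CPM in LCD KO 4 and 5, and Ptx3, Areg and Ereg were at 0 in all 5 libraries. The 18 theca and stroma markers summed to 11.58 to 19.09 CPM in HD mutant 1 to 3 and 14.5 and 17.9 CPM in LCD KO 4 and 5. The blood and immune markers summed to 59.0 to 74.6 CPM in HD mutant 1 to 3 and 107 and 113 CPM in LCD KO 4 and 5, with Ptprc, the pan-leukocyte marker, at 0 in all 5. Of that sum Pecam1, an endothelial adhesion gene, took 39.7 to 58.2 CPM in HD mutant 1 to 3 and 50.4 to 56.5 CPM in LCD KO 4 and 5. H2-Aa took 8.44 to 10.6 CPM in HD mutant and 44.2 and 41.1 CPM in LCD KO, and Cd4 2.05 to 8.07 CPM in HD mutant and 9.89 to 10.2 CPM in LCD KO. In such pools, fewer cells of a type and less RNA per cell cannot be told apart, and the part of these markers in the results was not tested.

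In batch 2, 256 of 12376 genes (2.07% of all genes tested) differed between HD mutant 1 to 3 and LCD KO 4 and 5 at an adjusted p below 0.05. HD mutant was higher in 150 (1.21%) and lower in 106 (0.856%). The change was at least 2-fold in 229 of the 256, and the median size was 1.65 on the log2 scale. In all 256 genes HD mutant 1 to 3 lay on one side of both LCD KO libraries, which was the case for 31.8% of all genes tested. Without HD mutant 1, 197 genes were called, and 179 of them were among the 256, all with the same sign. The count rests more on the LCD KO side. With LCD KO 4 left out 77 genes were called and with LCD KO 5 left out 84, in fits that assume that the lone LCD KO library varies like the other groups.

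**Figure D1:**
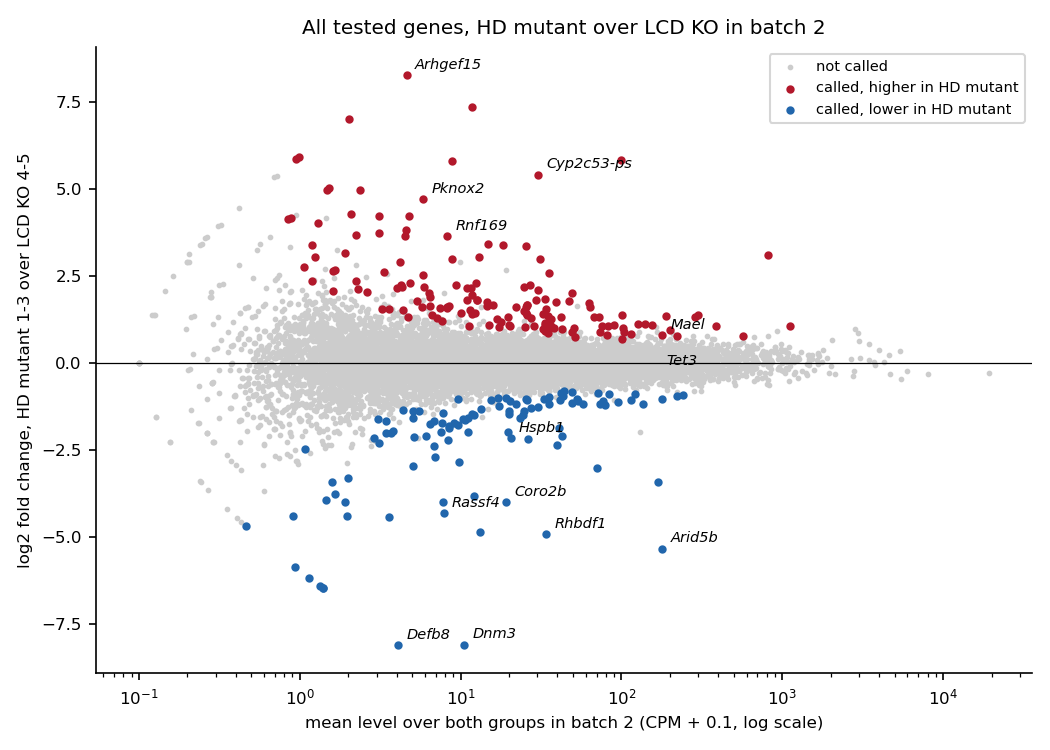
Each point is 1 of the 12376 genes tested. The x axis is the mean of the HD mutant 1-3 and LCD KO 4-5 levels (CPM + 0.1, log scale) and the y axis the log2 fold change of HD mutant over LCD KO in batch 2. Most genes lie around 0, and the 150 genes called higher (red) and 106 called lower (blue) span the range of levels, with Arid5b far down among abundant genes.

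Arid5b, Rhbdf1 and Rassf4 were the genes set down as markers of the comparison, and they were chosen with earlier results of these data known. All 3 fell in HD mutant. Arid5b, which encodes a DNA-binding protein with an AT-rich interaction domain, had 1.42, 9.51 and 14.7 CPM in HD mutant 1 to 3, against 332 and 370 CPM in LCD KO 4 and 5. HD mutant averaged 8.52 ± 6.67 CPM (SD, n = 3) and LCD KO 351 ± 26.6 CPM (SD, n = 2). Every HD mutant library lay far below both LCD KO libraries, HD mutant 1 lowest of all. On the log2 scale the change was -5.33 ± 0.47 (adjusted p = 2.84e-06), and it was -4.85 without HD mutant 1. HD mutant 4 and 5 had 3.83 and 8.0 CPM, and the other LCD KO libraries 79.2 to 135 CPM, so that all 5 HD mutant libraries lay below all 7 LCD KO libraries. Against the other LCD KO libraries the log2 fold change of HD mutant 4 and 5 was -4.28 (adjusted p = 1.11e-04). The 6 WT libraries had 102 to 206 CPM of Arid5b, within the range of LCD KO, and the change of LCD KO over WT did not pass the test (log2 fold change -0.42, adjusted p = 0.392).

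Rassf4, a member of the Ras association domain family, had 1.42, 0.446 and 0.372 CPM in HD mutant 1 to 3, against 15.3 and 14.2 CPM in LCD KO 4 and 5. The log2 fold change was -4.30 ± 0.49 (adjusted p = 1.0e-06). LCD KO 4 and 5 were themselves high for Rassf4. The other LCD KO libraries had 1.82 to 9.45 CPM and HD mutant 4 and 5 had 1.91 and 1.14 CPM, so that HD mutant 4 lay just above the lowest LCD KO library. That comparison gave a log2 fold change of -1.29 (adjusted p = 0.170). WT 4 had 21.5 CPM, whereas the WT libraries of batches 1 and 3 had at most 2.19 CPM, so in WT and LCD KO the level of this gene moved with the batch.

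Rhbdf1, which encodes the inactive rhomboid protein iRhom1, had 0.316, 2.97 and 2.98 CPM in HD mutant 1 to 3, against 63.7 and 67.3 CPM in LCD KO 4 and 5. The log2 fold change was -4.91 ± 0.35 (adjusted p = 2.14e-10). In HD mutant 4 and 5 the gene had 86.1 and 54.9 CPM, which lay on either side of LCD KO 4 and 5 and within or above the 50.7 to 75.6 CPM of the other LCD KO libraries. The log2 fold change there was 0.18 (adjusted p = 0.665). The HD mutant effect in libraries 4 and 5 exceeded that in batch 2 by 5.10 on the log2 scale (adjusted p = 1.79e-08). The fall of Rhbdf1 was thus measured in the 3 HD mutant libraries of batch 2 and not in the other 2, and the unstated batch cannot be told apart from other differences between these libraries.

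**Figure D2:**
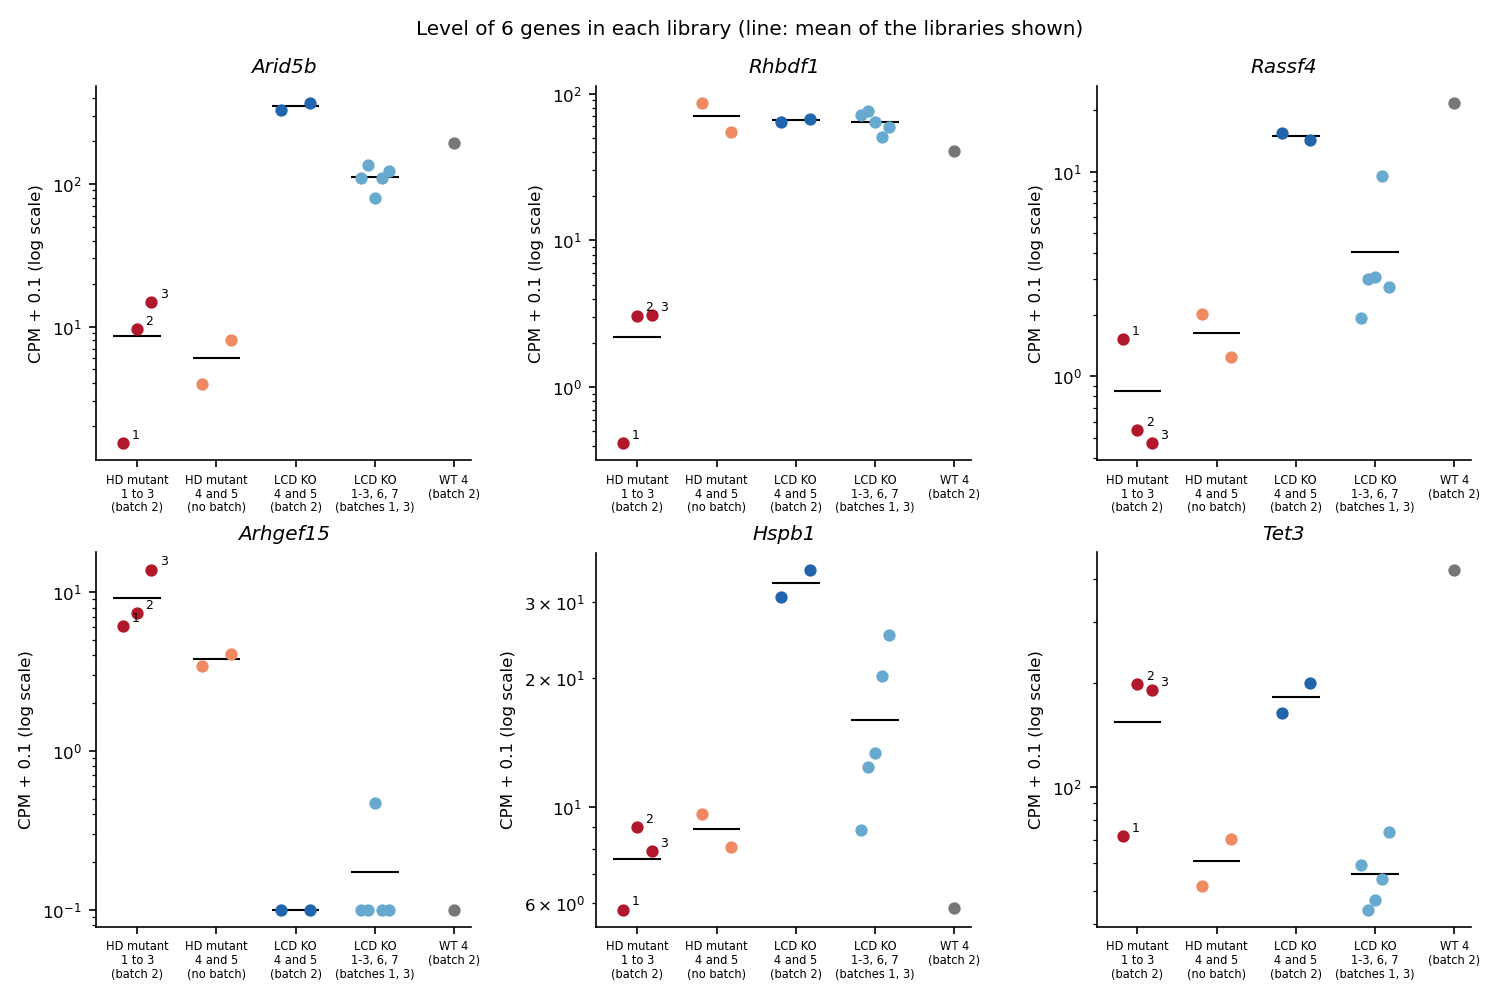
Levels of 6 genes (CPM + 0.1 on a log axis) in HD mutant 1-3, HD mutant 4-5, LCD KO 4-5, the other 5 LCD KO libraries and WT 4. Each point is a library, the lines are group means, and the small digits number HD mutant 1 to 3. Arid5b was below all LCD KO libraries and Arhgef15 above them in all 5 HD mutant libraries, whereas Rhbdf1 was low in HD mutant 1 to 3 alone.

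The promoters of Arid5b (chromosome 10) and Rassf4 (chromosome 6) are shown as background, since Tet3 acts on methylated cytosines in CpG context. Both genes fell in batch 2, but Rassf4 was not called in HD mutant 4 and 5. The promoter set used here holds no entry for Rhbdf1. Methylation of these promoters was not analysed, and its part in the falls was not tested. The sequences are the 250 bases before the RefSeq start in GRCm38.p6, on the strand of the gene, with each CpG (the letters CG, which read the same on both strands) in capitals. The counts were made on mm9, and which start the oocyte uses was not analysed here. The Arid5b sequence is chr10:68278727-68278976, minus strand, with 4 CpGs, and the Rassf4 sequence is chr6:116673837-116674086, minus strand, with 13.
Arid5b: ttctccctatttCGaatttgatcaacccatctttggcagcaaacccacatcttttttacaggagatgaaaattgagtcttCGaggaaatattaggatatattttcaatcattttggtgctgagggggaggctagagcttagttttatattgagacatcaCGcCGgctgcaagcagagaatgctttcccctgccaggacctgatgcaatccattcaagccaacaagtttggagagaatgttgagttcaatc
Rassf4: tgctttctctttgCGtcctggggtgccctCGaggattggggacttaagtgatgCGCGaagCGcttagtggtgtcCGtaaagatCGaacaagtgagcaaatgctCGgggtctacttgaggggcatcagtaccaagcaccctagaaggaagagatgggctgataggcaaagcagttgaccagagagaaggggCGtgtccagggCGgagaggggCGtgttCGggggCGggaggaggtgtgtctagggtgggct
Over the 27025 promoters of that table, with 1 start taken for each gene, the median was 6 CpGs in 250 bases (quartiles 2 and 16), and 91.7% held at least 1. Arid5b lay below that median and Rassf4 above it.

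By the rule for named genes, the 15 largest falls and the 15 largest rises were taken among called genes with a regular symbol and at least 1 CPM in the higher group. Gm, LOC and Rik symbols and members of the Olfr, Vmn and Mup families were left out by that rule, among them Olfr1349 (log2 fold change 4.22, adjusted p = 8.27e-04). Besides the 3 markers, the largest falls included 4 genes with 0 counts in HD mutant 1 to 3. Defb8, a beta-defensin gene, had 0 CPM in each of them against 8.78 and 7.24 CPM in LCD KO 4 and 5, which makes HD mutant at least 56.5-fold lower when 0 is read as up to 3 counts over the group (adjusted p = 2.29e-08). It was present in HD mutant 4 and 5 at 14.3 and 6.29 CPM, beside 6.56 to 17.9 CPM in the other LCD KO libraries, so that HD mutant 5 lay just below their lowest. Cyp2c55, a cytochrome P450 gene, was at least 18.2-fold lower in HD mutant, with 0 CPM in all 5 HD mutant libraries against 2.67 and 2.49 CPM in LCD KO 4 and 5. It was also at 0 in all 6 WT libraries and in LCD KO 2 and 3. Rab17, a small GTPase gene, was at least 14.6-fold lower, with counts among the HD mutant and LCD KO libraries in LCD KO 4 (1.11 CPM) and LCD KO 5 (3.06 CPM) alone. Nr0b2, an orphan nuclear receptor gene, was at least 11.9-fold lower, with 0 CPM in HD mutant 1, 2, 3 and 5 and 0.957 CPM in HD mutant 4, against 2.11 and 1.25 CPM in LCD KO 4 and 5. The call of Nr0b2 was lost without LCD KO 4 (adjusted p = 0.113) and that of Rab17 without HD mutant 3 (0.0513) and in DESeq2 (0.273).

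Dnm3, which encodes a dynamin GTPase, had 0, 0 and 0.124 CPM in HD mutant 1 to 3, against 21.0 and 20.6 CPM in LCD KO 4 and 5. That was 1 count in HD mutant and 371 in LCD KO, a normalised ratio of 0.00227 (95% exact interval 5.74e-05 to 0.0127, counting error only; adjusted p = 9.81e-11). In HD mutant 4 and 5 it had 3.83 and 4.0 CPM and in the other LCD KO libraries 1.11 to 9.45 CPM, and these overlapped. Coro2b, a coronin gene of the actin cytoskeleton, had 0.473, 2.38 and 3.72 CPM in HD mutant 1 to 3 against 34.2 and 38.0 CPM in LCD KO 4 and 5, a log2 fold change of -3.98 ± 0.46 (adjusted p = 2.84e-06). It was also low in HD mutant 4 and 5, at 0.957 and 2.29 CPM, against 2.06 to 12.9 CPM in the other LCD KO libraries (log2 fold change -2.55, adjusted p = 0.0109). Coro2b was therefore lower in HD mutant than in LCD KO in both sets of libraries, with LCD KO 2 overlapping HD mutant. LCD KO 4 and 5 were themselves high, since WT 4 had 4.66 CPM and the other WT libraries 5.64 to 6.91 CPM. Over WT 4, a lone library, the log2 fold change was 2.95 in LCD KO 4 and 5 and -1.03 in HD mutant 1 to 3.

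Prr18 had 0, 1.93 and 0.621 CPM in HD mutant 1 to 3 against 16.9 and 33.6 CPM in LCD KO 4 and 5 (log2 fold change -4.84 ± 0.56). Tbx19, a T-box transcription factor gene, had 0.148 to 0.372 CPM in HD mutant 1 to 3 against 6.34 and 7.02 CPM in LCD KO 4 and 5 (-4.42 ± 0.57). Both genes were higher in WT 4 than in LCD KO 4 and 5, at 37.6 CPM of Prr18 and 8.25 CPM of Tbx19, and lower in the other LCD KO libraries. Agpat4, an acyltransferase gene of phospholipid synthesis, had 0 to 0.316 CPM in HD mutant 1 to 3 against 2.00 and 4.87 CPM in LCD KO 4 and 5 (-3.99 ± 0.85). Il1f9, which encodes an interleukin-1 family cytokine, had 1 count in HD mutant 1 to 3 and 28 in LCD KO 4 and 5, a ratio of 0.0301 (95% exact interval 7.37e-04 to 0.182). Folr2, a folate receptor gene, had 3 and 64 counts, a ratio of 0.0396 (0.00795 to 0.121). Thrsp, a gene of lipogenesis, had 0, 1.49 and 1.12 CPM in HD mutant 1 to 3 against 15.4 and 13.5 CPM in LCD KO 4 and 5 (-3.98 ± 0.79). Folr2 and Thrsp were called in the opposite direction in HD mutant 4 and 5, by 3.75 and 4.29 on the log2 scale (adjusted p = 0.0226 and 0.0255). Both genes were at 0 in LCD KO 6 and 7, which enter that comparison. HD mutant 4 and 5 had 2.87 and 2.29 CPM of Folr2 and 12.9 and 13.15 CPM of Thrsp. These lay within LCD KO 1 to 3, at 0.365 to 2.95 CPM of Folr2 and 3.29 to 27.3 CPM of Thrsp. Over LCD KO 4 and 5 their log2 fold changes were -0.46 and -0.15. Thrsp was also at 0 in both WT libraries of batch 3, so its level moved with the batch too. The calls of Thrsp and Il1f9 were lost without LCD KO 5 (adjusted p = 0.0963 and 0.345), and that of Agpat4 as well (0.254). Thrsp was also lost without LCD KO 4 (0.125) or HD mutant 3 (0.0680), and Il1f9 without HD mutant 2 (0.0833) or 3 (0.0983).

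The largest rise was Arhgef15, which encodes a guanine nucleotide exchange factor. It had 6.0, 7.28 and 13.8 CPM in HD mutant 1 to 3 and 3.35 and 4.0 CPM in HD mutant 4 and 5. It was at 0 in LCD KO 4 and 5 and in 4 of the other 5 LCD KO libraries, with 0.369 CPM in LCD KO 3, and at 0 in all 6 WT libraries. HD mutant 1 to 3 were at least 55.7-fold higher than LCD KO 4 and 5 (adjusted p = 4.55e-05), and HD mutant 4 and 5 were called higher than the other LCD KO libraries as well (adjusted p = 6.97e-04). Asgr1, a subunit of the asialoglycoprotein receptor, behaved alike. It had 10.9, 7.57 and 6.83 CPM in HD mutant 1 to 3 and 3.83 and 5.72 CPM in HD mutant 4 and 5, against 0.334 and 0.792 CPM in LCD KO 4 and 5 and at most 0.411 CPM in the other LCD KO libraries. The log2 fold change was 3.84 ± 0.64 in batch 2 (adjusted p = 4.5e-04) and 4.89 in HD mutant 4 and 5 (adjusted p = 1.57e-04). Without LCD KO 4 the batch 2 call was lost (adjusted p = 0.0591).

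Pknox2, a homeobox gene, was high in HD mutant of batch 2 alone, with 4.10, 13.1 and 16.1 CPM in HD mutant 1 to 3 against 0 and 0.792 CPM in LCD KO 4 and 5 (4.72 ± 0.91, adjusted p = 0.00548) and 0.478 and 0 CPM in HD mutant 4 and 5. Its call was lost in DESeq2 (adjusted p = 0.727), with only the libraries of the contrast in the fit (0.0579) and without LCD KO 4 (0.123). Rnf169, an E3 ubiquitin ligase gene of the response to DNA breaks, had 11.5, 17.5 and 16.5 CPM in HD mutant 1 to 3 against 1.22 and 1.13 CPM in LCD KO 4 and 5 (3.66 ± 0.45). The gene had 13.9 and 14.3 CPM in HD mutant 4 and 5, but the other LCD KO libraries had 5.53 to 17.2 CPM. Here LCD KO 4 and 5 stood apart from the remaining LCD KO libraries. WT 4 of the same batch was low too, at 1.97 CPM, beside 2.74 to 20.7 CPM in the other WT libraries. Eva1c had 7.28 to 8.99 CPM in HD mutant 1 to 3 against 0.778 and 0.453 CPM in LCD KO 4 and 5 (3.67 ± 0.58), and the other LCD KO libraries had 0.238 to 16.0 CPM. Slc17a6, a vesicular glutamate transporter gene, had 4.47 to 7.57 CPM in HD mutant 1 to 3 against 0.445 and 0.340 CPM in LCD KO 4 and 5 (3.75 ± 0.74). It was at 0 in HD mutant 4 and 5, where the call was in the opposite direction (adjusted p = 0.00315). The batch 2 call of Slc17a6 was lost without LCD KO 4 (adjusted p = 0.0885) and without LCD KO 5 (0.123).

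Cyp2c53-ps, a cytochrome P450 pseudogene, had 44.2, 74.1 and 58.7 CPM in HD mutant 1 to 3 and 34.4 and 27.4 CPM in HD mutant 4 and 5, against 0.667 and 2.04 CPM in LCD KO 4 and 5 (5.42 ± 0.90). Among the other LCD KO libraries 4 had 2.19 to 7.24 CPM and LCD KO 2 had 32.5 CPM, and WT 4 had 48.6 CPM. Its call was lost without LCD KO 4 (adjusted p = 0.109) and without LCD KO 5 (0.0542). Slc22a22, an organic anion transporter gene, was at least 10.4-fold higher in HD mutant 1 to 3, at 1.10 to 2.61 CPM against 0 in LCD KO 4 and 5, and was also at 0 in HD mutant 4 and 5. Its call was lost without LCD KO 4 (adjusted p = 0.333) and without LCD KO 5 (0.346). The other 7 rises rest on 1 to 3 counts in LCD KO 4 and 5 together. Qpct, the glutaminyl cyclase gene, had 93 counts in HD mutant 1 to 3 and 2 in LCD KO 4 and 5, a ratio of 39.2 (95% exact interval 10.6 to 329). It was also called in HD mutant 4 and 5, at 14.3 and 9.72 CPM against 1.43 to 17.7 CPM in the other LCD KO libraries (adjusted p = 0.0189). Smco2 and Scimp each had 56 counts against 1 (47.3, 8.14 to 1900), Myo7a, a myosin gene, and Trim30d each 32 against 1 (27.0, 4.51 to 1100), Art4 82 against 3 (23.1, 7.62 to 114) and Sec1 49 against 2 (20.7, 5.43 to 176). Of these, Qpct alone kept its call with any 1 of the 5 libraries left out. Without LCD KO 5 the other 6 calls were lost, at adjusted p of 0.127 to 0.524, and without LCD KO 4 those of Smco2, Myo7a, Trim30d and Sec1 were lost, at 0.0964 to 0.363. Trim30d was lost without HD mutant 1 (0.0633) or 3 (0.186) and Myo7a without HD mutant 2 (0.0684). Defensins, cytochromes P450, Trim30d and Sec1 belong to families of similar genes, and the sources used here do not say how reads with several alignments were counted, so their values are uncertain.

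**Figure D3:**
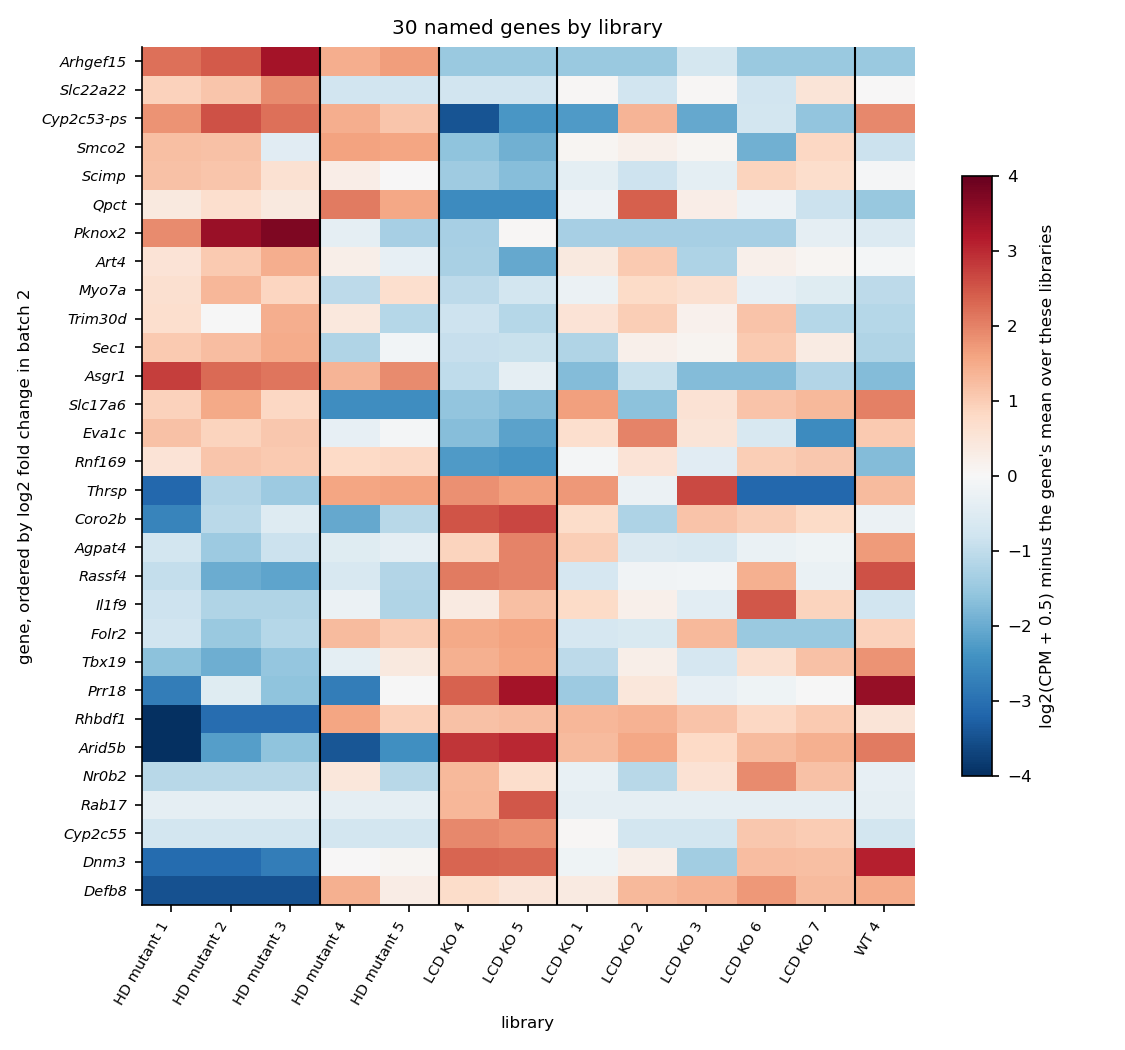
Levels of the 30 named genes in HD mutant 1-5, LCD KO 4-5, the other LCD KO libraries and WT 4, as log2(CPM + 0.5) minus the mean of the gene over these 13 libraries (red high, blue low). Rows are ordered by the batch 2 log2 fold change and vertical lines part the sets of libraries. HD mutant 1 to 3 contrast with LCD KO 4 and 5 in every row because the genes were chosen so, whereas HD mutant 4 and 5 follow HD mutant 1 to 3 in some rows (Arhgef15, Asgr1, Arid5b) and not in others (Rhbdf1, Defb8, Slc17a6).

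The direction of the 256 genes was then checked in HD mutant 4 and 5 against LCD KO 1 to 3, 6 and 7, which share no library with the batch 2 comparison. Of the 150 genes called higher in batch 2, 100 (66.7%) were higher in HD mutant 4 and 5 as well, against 49.4% of all genes. Of the 106 called lower, 72 (67.9%) were lower, against 50.6% of all genes. The median log2 fold change in HD mutant 4 and 5 was 0.54 for the genes called higher, against 1.64 in batch 2, and -0.52 for the genes called lower, against -1.66 in batch 2. In HD mutant 4 and 5, 25.1% of all genes were called (12.6% higher, 12.5% lower), and their unstated batch cannot be told apart from the genotype. Of the 150 genes, 50 were called higher again and 10 were called lower, and of the 106 genes, 27 were called lower again and 12 were called higher. The difference between both effects was called for 56 of the 150 and 39 of the 106 genes, beside 7.71% of all genes (2.65% with the higher and 5.06% with the lower value in HD mutant 4 and 5). That difference shares the batch 2 libraries with the choice of the genes and is given as a description.

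In 41 of the 256 genes all 5 HD mutant libraries lay beyond all 7 LCD KO libraries, 31 above and 10 below. Over all genes tested the shares were 0.889% above and 0.582% below. These shares are no like baseline. In all 256 called genes HD mutant 1 to 3 already lay on one side of LCD KO 4 and 5, against 31.8% of all genes. The genes below, in order of the batch 2 change, were Arid5b, Olfr206, Isl1, Sspn, Pira6, Hist1h4d, Atp1b1, Aldh9a1, Cpox and Myo1e. Those named here from this set of 41, other than Arid5b, Arhgef15 and Asgr1, were picked after their values were seen. Cpox, coproporphyrinogen oxidase of haem synthesis, had 15.7 to 18.1 CPM in HD mutant 1 to 3 and 10.5 and 8.0 CPM in HD mutant 4 and 5, against 31.9 and 37.2 CPM in LCD KO 4 and 5 and 23.8 to 53 CPM in the other LCD KO libraries. Its log2 fold change was -1.04 ± 0.24 in batch 2 (adjusted p = 0.0116) and -2.06 ± 0.30 in HD mutant 4 and 5 (adjusted p = 1.93e-05). Aldh9a1, an aldehyde dehydrogenase gene, had 78.3 to 91.6 CPM in HD mutant 1 to 3 and 46.4 and 83.5 CPM in HD mutant 4 and 5, against 185 and 188 CPM in LCD KO 4 and 5 and 93.3 to 211 CPM in the other LCD KO libraries (-1.16 ± 0.26 and -1.28 ± 0.27). The lowest LCD KO library lay close to the highest HD mutant library.

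Among the 31 genes above, Gpat3, a glycerol-3-phosphate acyltransferase gene, had 36.0, 54.2 and 74.9 CPM in HD mutant 1 to 3 and 28.2 and 26.3 CPM in HD mutant 4 and 5. LCD KO 4 and 5 had 8.11 and 5.77 CPM and the other LCD KO libraries 4.74 to 10.3 CPM. Its log2 fold change was 2.98 ± 0.34 in batch 2 (adjusted p = 1.2e-06) and 1.90 ± 0.33 in HD mutant 4 and 5 (adjusted p = 1.24e-04). Dkk1, an inhibitor of Wnt signalling, had 34.9 to 49.2 CPM in HD mutant 1 to 3 and 73.7 and 31.5 CPM in HD mutant 4 and 5, against a mean of 8.85 ± 1.63 CPM in LCD KO 4 and 5 (SD, n = 2) and 11.0 to 26.7 CPM in the other LCD KO libraries (2.19 ± 0.32 and 1.66 ± 0.28). Timm10, a chaperone of mitochondrial import, had 49.5 to 72.3 CPM in HD mutant 1 to 3 and 59.8 and 39.5 CPM in HD mutant 4 and 5, against 20.3 and 26.8 CPM in LCD KO 4 and 5 and 8.63 to 16.4 CPM in the other LCD KO libraries (1.34 ± 0.26 and 2.09 ± 0.25). These 3 genes rose in both sets of HD mutant libraries with no overlap with LCD KO. E330012B07Rik, a gene with no regular name, had 224, 179 and 186 CPM in HD mutant 1 to 3 and 301 and 284 CPM in HD mutant 4 and 5, against 2.78 and 3.96 CPM in LCD KO 4 and 5 (5.85 ± 0.52). The other LCD KO libraries had 45.0 to 119 CPM, so LCD KO 4 and 5 were themselves far below them. WT 4 of the same batch was low too, at 5.20 CPM, beside 45.2 to 139 CPM in the other WT libraries.

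**Figure D4:**
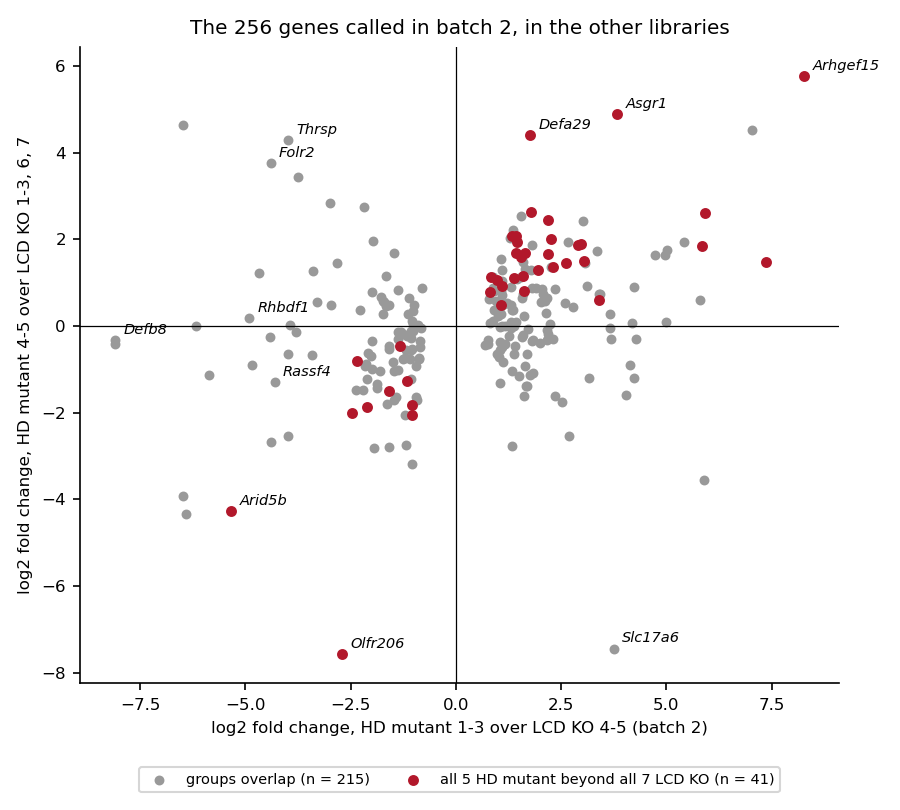
Each point is 1 of the 256 genes called in batch 2. The x axis is the log2 fold change of HD mutant 1-3 over LCD KO 4-5, and the y axis that of HD mutant 4-5 over LCD KO 1-3, 6 and 7. Red points are the 41 genes in which all 5 HD mutant libraries lay beyond all 7 LCD KO libraries, and the scatter into the upper left and lower right holds the genes with opposite signs, such as Thrsp, Folr2 and Slc17a6. Thrsp and Folr2 were at 0 in LCD KO 6 and 7, which enter the y axis.

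Because batch 2 has 2 LCD KO libraries, each called gene was set against the 5 LCD KO libraries of the other batches to see which group stood outside their range. LCD KO 4 and 5 both lay outside it, and HD mutant 1 to 3 did not all do so, in 107 of the 256 genes (41.8%, against 24.3% of all genes). HD mutant 1 to 3 lay outside it, and LCD KO 4 and 5 did not both do so, in 75 (29.3%, against 4.84% of all genes). Both groups were outside in 36 genes (14.1%, against 21.1% of all genes) and neither in 38 (14.8%, against 49.8%). The shares of all genes are no like baseline here, since all 256 genes were called for a difference between the 2 groups. The classes are also unlike, as 2 libraries had to lie outside for LCD KO and 3 for HD mutant. The counts of 107 and 75 therefore do not tell which group stood apart more often. Among the 107 genes, LCD KO 4 and 5 stood apart in 59 of the genes called higher and in 48 of those called lower. On the log2(CPM + 0.5) scale WT 4, the WT library of batch 2, was also set against both groups. It lay nearer to LCD KO 4 and 5 than to HD mutant 1 to 3 in 158 of the 256 genes (61.7%). The share of all genes was 53.5%, which is no like baseline for called genes either.

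Whether the genes that LCD KO alters were altered to another extent in HD mutant was asked with genes chosen on libraries outside batch 2. In batches 1 and 3, LCD KO differed from WT in 1716 genes (13.9%), with 910 raised (7.35%) and 806 lowered (6.51%). Their median log2 fold change of HD mutant 1 to 3 over LCD KO 4 and 5 was 0.02 for the raised and 0.03 for the lowered genes, beside -0.01 for all genes. The medians of HD mutant 1, 2 and 3 one by one were 0.15, -0.05 and -0.04 for the raised genes and -0.07, 0.08 and 0.06 for the lowered genes, so HD mutant 1 had the opposite sign to HD mutant 2 and 3 in both sets. Over WT 4, the lone WT library of batch 2, the raised genes had a median of 0.53 in HD mutant and 0.49 in LCD KO, and the lowered genes -0.30 in HD mutant and -0.35 in LCD KO. These last comparisons share WT 4. Both medians of HD mutant over LCD KO were smaller than the SD over the 3 HD mutant libraries, which was 0.11 for the raised and 0.08 for the lowered genes. Here and for the 2-fold sets below, that SD holds no spread between LCD KO 4 and 5, whose mean all 3 medians share.

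Among the 910 raised genes 15 were called higher and 13 lower in HD mutant over LCD KO (3.08%), and among the 806 lowered genes 24 were called higher and 10 lower (4.22%), beside 2.07% of all genes. When the choice was narrowed to genes altered at least 2-fold in LCD KO, the medians of HD mutant over LCD KO were -0.09 for 342 raised genes and 0.23 for 228 lowered genes. HD mutant 1, 2 and 3 had medians of -0.0028, -0.13 and -0.19 for these raised genes, with an SD of 0.09. Of the 342 genes, 8 were called higher and 10 lower (5.26%). Their median over WT 4 was 0.79 in HD mutant and 0.81 in LCD KO. HD mutant 1, 2 and 3 had medians of 0.09, 0.18 and 0.26 for these lowered genes, all above 0, with an SD of 0.08. Of the 228 genes, 17 were called higher and 7 lower (10.5%). The 2-fold lowered genes had a median of -0.72 over WT 4 in HD mutant and -0.93 in LCD KO. HD mutant 4 and 5 did not repeat the sign of these 2-fold lowered genes. Their median over LCD KO 4 and 5 was -0.10 for the 2-fold lowered and -0.10 for the 2-fold raised genes, beside -0.07 for all genes. For all lowered genes it was -0.21 and for all raised genes 0.19. The unstated batch of HD mutant 4 and 5 enters these values, and they share LCD KO 4 and 5 with the batch 2 comparison.

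Called genes of these sets moved both ways in HD mutant. Against the direction of LCD KO over WT in batches 1 and 3 went 13 raised and 24 lowered genes. Further along it went 15 raised and 10 lowered genes. LCD KO 4 and 5 did not share that direction over WT 4 in every such gene. Of the raised genes, Qpct had 0.111 and 0.113 CPM in LCD KO 4 and 5 against 0.717 CPM in WT 4. Rassf4 had 15.3 and 14.2 CPM against 21.5 CPM in WT 4. Such genes neither returned from a change of LCD KO within batch 2 nor went further along one. The genes described next all moved against the direction of batches 1 and 3. They were picked after their values were seen, except Hspb1, a member of the stress list. Hspb1, a small heat shock protein gene, had 5.68, 8.91 and 7.82 CPM in HD mutant 1 to 3, against 30.8 and 35.7 CPM in LCD KO 4 and 5. HD mutant averaged 7.47 ± 1.64 CPM (SD, n = 3) and LCD KO 33.2 ± 3.44 CPM (SD, n = 2), and WT 4 had 5.74 CPM. On the log2 scale the change was -2.15 ± 0.28 (adjusted p = 9.15e-06). LCD KO had raised the gene in batches 1 and 3 by 1.56 on the log2 scale (adjusted p = 7.82e-05). HD mutant 4 and 5 had 9.57 and 8.0 CPM, against 8.75 to 25 CPM in the other LCD KO libraries (log2 fold change -0.87, adjusted p = 0.0569), so that LCD KO 1 overlapped HD mutant 4.

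Tmem47, a transmembrane protein gene, had 8.52, 4.90 and 8.44 CPM in HD mutant 1 to 3 and 7.65 and 8.58 CPM in HD mutant 4 and 5. LCD KO 4 and 5 had 0.778 and 1.13 CPM and the other LCD KO libraries 0.822 to 4.41 CPM, while the 6 WT libraries had 14.9 to 40.5 CPM. All 5 HD mutant libraries thus lay above all 7 LCD KO libraries and below all 6 WT libraries. The log2 fold change of HD mutant over LCD KO was 2.90 ± 0.39 in batch 2 (adjusted p = 1.35e-05) and 1.86 in HD mutant 4 and 5 (adjusted p = 0.00113). Cth, which encodes cystathionine gamma-lyase of cysteine synthesis, had 14.5 to 16.1 CPM in HD mutant 1 to 3 and 51.2 and 23.4 CPM in HD mutant 4 and 5. LCD KO 4 and 5 had 3.34 and 3.06 CPM, the other LCD KO libraries 5.83 to 11.9 CPM and the WT libraries 20.4 to 37.3 CPM. Its log2 fold change was 2.26 ± 0.41 in batch 2 (adjusted p = 0.00145). Npl, a gene of sialic acid breakdown, had 5.83 to 11.4 CPM in HD mutant 1 to 3 and 4.31 and 9.15 CPM in HD mutant 4 and 5, against 1.33 and 1.81 CPM in LCD KO 4 and 5, 2.20 to 2.86 CPM in the other LCD KO libraries and 4.49 to 9.32 CPM in WT (2.30 ± 0.47, adjusted p = 0.00431).

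**Figure D5:**
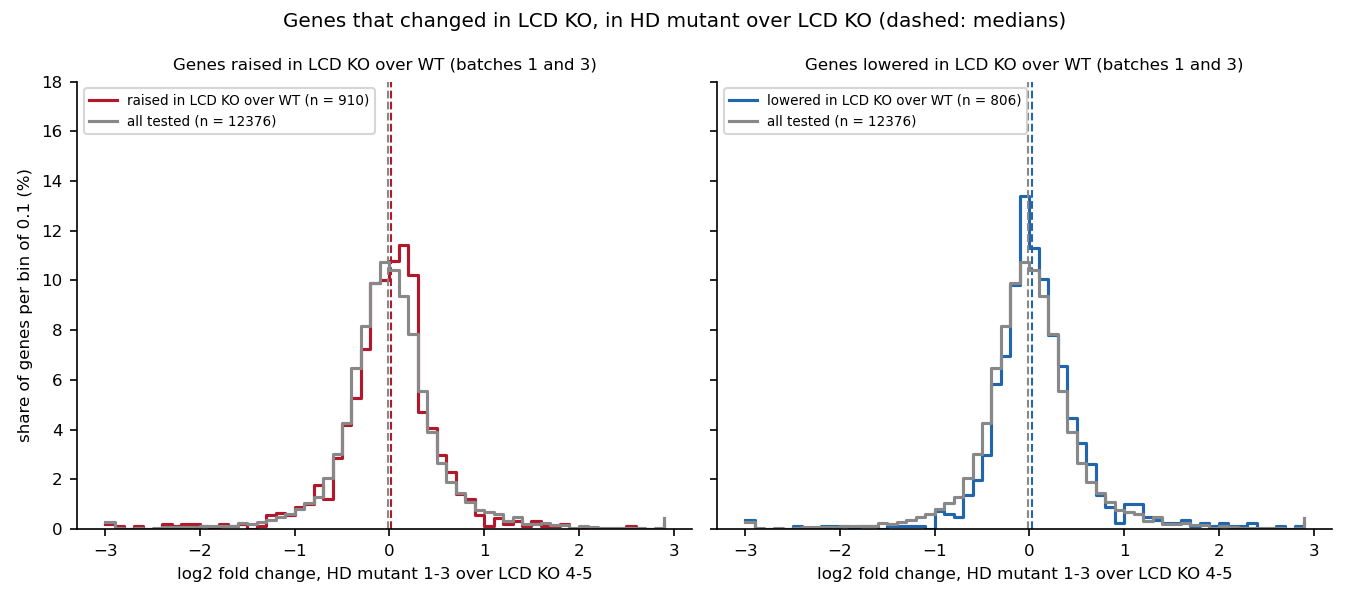
Shares of genes by the log2 fold change of HD mutant 1-3 over LCD KO 4-5 (bins of 0.1, ends clipped at 3), for the 910 genes raised (left) and 806 lowered (right) in LCD KO over WT in batches 1 and 3, each beside all 12376 genes (grey). Dashed lines are medians, which lie at 0.02, 0.03 and -0.01, so the curves nearly coincide.

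The 5 largest rises and falls of LCD KO over WT in batches 1 and 3 were not called in HD mutant 1 to 3 over LCD KO 4 and 5. In HD mutant 4 and 5 over the other LCD KO libraries, Mt1 (log2 fold change 1.09, adjusted p = 1.35e-04) and Adssl1 (4.41, adjusted p = 0.00275) were called higher and the other 8 were not called. Among the rises in batch 2, Mt1 had a log2 fold change of HD mutant over LCD KO of 0.54 ± 0.21 (adjusted p = 0.264). Zfp804b, a zinc finger gene, had 0.158, 0.446 and 0.496 CPM in HD mutant 1 to 3 and 0.334 and 1.13 CPM in LCD KO 4 and 5, against 0 CPM in all 6 WT libraries. Chrnb3, a nicotinic receptor subunit gene, had 0.789, 1.93 and 0.869 CPM in HD mutant 1 to 3 and 0 and 0.679 CPM in LCD KO 4 and 5. The other 2 rises are the Cre and GFP rows, both at 0 counts in HD mutant 1 to 3 and LCD KO 4 and 5. Among the falls, Aff3 had 3.31, 5.35 and 5.34 CPM in HD mutant 1 to 3 and 1.78 and 4.19 CPM in LCD KO 4 and 5, and Tnc, the tenascin C gene, 3.15, 0.743 and 0.745 CPM in HD mutant 1 to 3 and 0.778 and 1.58 CPM in LCD KO 4 and 5. Neto2, Adssl1 and Zfr2 had log2 fold changes of 1.02, 1.13 and -0.33, with adjusted p of 0.634, 0.494 and 0.900.

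Of 18 lists of genes, 13 held no called member in edgeR. These were the lists of DNA methylation machinery (26 members tested, median log2 fold change -0.12), imprinted genes with maternal methylation (22, 0.02), histone modifiers (45, -0.04), base excision repair (27, 0.03), oocyte and maternal-effect genes (53, 0.03), oocyte identity (10, 0.01), meiotic maturation (51, -0.05), maternal mRNA decay (39, -0.16), 2-cell genome activation (11, 0.28), apoptosis (27, -0.03), oxidative phosphorylation (74, 0.17), granulosa or cumulus cells (14, -0.35) and theca or stroma (5, -0.21). The median of all genes was -0.01. None of these medians was tested against it. At an unadjusted p below 0.05, edgeR gave 47 of the 404 list entries (11.6%), beside 11.6% of all genes. DESeq2 called 2 of them (0.495%, beside 2.45% of all genes), Arg2 of the 2-cell list and Khdc3 of the maternal-effect list. The edgeR share at an unadjusted p below 0.05 was uneven between lists. It ran from 0 of 10 for oocyte identity to 5 of 11 for 2-cell genome activation. Without HD mutant 1 the median of the 2-cell list was 0.11. Members of the methylation machinery are given next by choice and not by the rule. Dnmt3a, the de novo methyltransferase of the oocyte, averaged 547 ± 120 CPM in HD mutant 1 to 3 and 650 ± 74.4 CPM in LCD KO 4 and 5 (SD; log2 fold change -0.25 ± 0.18, adjusted p = 0.668). Dnmt3l, its cofactor, averaged 177 ± 59.9 CPM in HD mutant and 239 ± 32.9 CPM in LCD KO (-0.43 ± 0.21, adjusted p = 0.430). Dppa3, which shields maternal methylation in the zygote, averaged 3797 ± 1796 CPM in HD mutant and 2087 ± 130 CPM in LCD KO (0.86 ± 0.29, adjusted p = 0.154), with a large spread among the HD mutant libraries.

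Among 38 tested germline genes known for sensitivity to promoter methylation, 4 were called (10.5%, beside 2.07% of all genes), 2 in each direction. All 4 calls were lost without LCD KO 4, with adjusted p of 0.0953 for Hormad1, 0.313 for Tex15, 0.211 for Mael and 0.429 for Tuba3b. With only the libraries of the contrast in the fit, Tex15 (0.178), Mael (0.0835) and Tuba3b (0.0846) were lost. Leaving out HD mutant 2 lost Tex15 (0.0814) and Tuba3b (0.0522), and leaving out LCD KO 5 lost Mael (0.245). Hormad1, a gene of the meiotic chromosome axis, had 4.42, 3.71 and 2.73 CPM in HD mutant 1 to 3 against 14.8 and 11.7 CPM in LCD KO 4 and 5 (log2 fold change -1.87 ± 0.37, adjusted p = 0.00345). Tex15, a gene of meiotic recombination and transposon silencing in male germ cells, had 3.94, 2.38 and 5.96 CPM in HD mutant 1 to 3 against 13 and 9.39 CPM in LCD KO 4 and 5 (-1.43 ± 0.33, adjusted p = 0.0127). Both were also called lower in HD mutant 4 and 5 over the other LCD KO libraries (-1.34 and -1.64, adjusted p = 0.0224 and 0.00104). For Tex15 those LCD KO libraries, at 26.4 to 39.5 CPM, all lay above LCD KO 4 and 5. HD mutant 4 and 5 had 11.5 and 10.3 CPM of Tex15, near LCD KO 4 and 5 (log2 fold change -0.04) and above HD mutant 1 to 3. They had 9.09 and 5.15 CPM of Hormad1, within the 3.29 to 15.7 CPM of LCD KO 1 to 3. LCD KO 6 and 7 had 39.7 and 32.2 CPM of Hormad1. Mael, a gene of the piRNA pathway, had 247, 214 and 222 CPM in HD mutant 1 to 3 against 131 and 129 CPM in LCD KO 4 and 5 (0.81 ± 0.19, adjusted p = 0.0150). The 227 and 210 CPM of HD mutant 4 and 5 lay within the 175 to 234 CPM of the other LCD KO libraries. Tuba3b, a testis alpha-tubulin gene, had 99.4, 122 and 87.4 CPM in HD mutant 1 to 3 against 29.0 and 53 CPM in LCD KO 4 and 5 (1.33 ± 0.30), and was called lower in HD mutant 4 and 5 (-1.03, adjusted p = 0.0119). The median of the germline list was 0.09, and -0.08 without HD mutant 1.

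The remaining 4 called members came from 4 other lists, 1 each. That was 2.94% of the tested p53 genes, 2.33% of the stress and chaperone genes and 1.35% of the ribosomal protein genes, near the 2.07% of all genes. Cdkn1a, the p21 cell cycle inhibitor gene and 1 of 34 members of the p53 list, had 1.26 to 1.36 CPM in HD mutant 1 to 3 against 6.0 and 4.75 CPM in LCD KO 4 and 5 (-2.0 ± 0.53, adjusted p = 0.0404). The call was lost with any 1 of these 5 libraries left out, at adjusted p of 0.10 to 0.397, and with only the libraries of the contrast in the fit (0.0568). Hspb1 was 1 of 43 stress and chaperone genes. Rpl23, 1 of 74 ribosomal protein genes, had 93.2, 136 and 139 CPM in HD mutant 1 to 3 against 54.0 and 61.7 CPM in LCD KO 4 and 5 (1.09 ± 0.21, adjusted p = 0.00258). Its call was lost without LCD KO 4 (adjusted p = 0.125). H2-Aa, which encodes a class II histocompatibility chain and was 1 of 4 tested immune markers, had 10.6, 9.36 and 8.44 CPM in HD mutant 1 to 3 against 44.2 and 41.1 CPM in LCD KO 4 and 5 (-2.17 ± 0.28, adjusted p = 8.62e-06). In HD mutant 4 and 5 H2-Aa had 29.2 and 28.6 CPM, called higher than the 1.82 to 8.19 CPM of the other LCD KO libraries, whereas WT 4 had 58.1 CPM. H2-Ab1, its partner chain, had at most 0.297 CPM in HD mutant 1 to 3 and 0 in LCD KO 4 and 5. Rpl23, Tuba3b and H2-Aa have similar copies in the genome, so their counts are uncertain.

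The placement of the called genes along the chromosomes is given as counts. With 12054 of the tested genes placed in their order in GRCm38 and divided into 250 runs of up to 50 neighbours, 127 runs held no called gene. The 9 runs with 5 or more called genes held 63 of the 247 placed called genes (25.5%) and 3.73% of the placed genes. These runs were picked for their called genes, so the first share exceeds the second by construction. The number of such runs under an even placement was not worked out. The fullest run, from Eps8 to Ergic2 on chromosome 6, held 11 called genes of 50, of which 7 were higher and 4 lower in HD mutant, among them Smco2, Tuba3b, Sspn and E330012B07Rik. Runs on chromosomes 1 (Abl2 to Dcaf6, with Dnm3, Tbx19 and Atp1b1), 8 (Adam9 to Lonrf1, with Tex15) and 17 (Pisd-ps2 to Smoc2, with Prr18 and Agpat4) held 8 each. A run on chromosome 7 (Tmem126b to Relt) held 7, among them Thrsp, Myo7a and Rnf169, and a run on chromosome 11 (Xpo1 to Rars) held 6, among them Rhbdf1. All 6 of these runs held genes called in each direction. The run of Tet3 itself, on chromosome 6, held 1 called gene, Pcgf1. By chromosome, the share called was 3.55% on 11, 3.52% on 1 and 3.45% on 6, against 0.22% on 13 and 0.678% on 10, where Arid5b lies. No test was made of this placement.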

How the data were processed

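The authors deposited raw counts of reads for each gene symbol, not normalized. Per the submitters' processing notes, tools were Trim Galore 0.5.0, HISAT2 2.1.0 with mm9, and featureCounts 1.6.4; annotation, strand and handling of multiply aligned reads are not given in the sources used here. The 92 spike-in features (1 count) were left out. The TKO columns equal the Tet3 KO columns and were counted once, leaving 24 libraries. The main test was edgeR 4.0.16 under R 4.3.3 (quasi-likelihood F, TMM, filterByExpr, robust), with a mean for each of 11 combinations of group and batch and 13 residual degrees of freedom, so that the spread comes from all libraries and each contrast from its own. A gene was called at a Benjamini-Hochberg adjusted p below 0.05 over 12376 genes. The standard error is the log2 fold change over the root of F. DESeq2 1.42.0 was an alternative. CPM are TMM-normalised. Named genes are the 15 largest rises and falls among called genes whose higher group averaged at least 1 CPM, with a regular symbol (no Gm, LOC or Rik symbol and no Olfr, Vmn or Mup family member) and no overlap of HD mutant 1 to 3 with LCD KO 4 and 5, together with Tet3, the markers, called members of the 18 lists, and the 5 largest rises and falls of LCD KO over WT. A count of 0 is read as up to 3 counts over the group; bounds and intervals cover counting error only. The members and lists were chosen with earlier results of these data known. The test was checked on simulated counts. It called 41 of 100 genes changed 2-fold and 88 of 100 changed 4-fold, and 10 of 12176 unchanged genes. A gene that was not called may therefore still differ. Promoters and gene order come from RefSeq (GRCm38).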

Additional observations from a re-analysis of the deposited data

Results flagged for a closer look

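In 39 genes of the report, the HD mutant libraries (5) and the LCD KO libraries (7) were searched for a library far from the rest of its group. Chance flags about 1 of 20 groups when values are normally spread within 1 population. Levels here reach 0 and pool batches, so that rate need not hold. HD mutant was at 0 throughout for Cyp2c55 and Rab17, which could not be flagged. Of 78 groups, 9 were picked out. Among HD mutant libraries these were Cdkn1a in library 5 (4.0 CPM) and Nr0b2 in library 4 (0.957 CPM). Among LCD KO libraries they were Agpat4 (4.87 CPM) and Rab17 (3.06 CPM) in library 5, Cyp2c53-ps (32.5 CPM), Eva1c (16.0 CPM) and Qpct (17.7 CPM) in library 2, Il1f9 in library 6 (5.98 CPM) and Arhgef15 in library 3 (0.369 CPM, 1 count).

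The HD mutant effect in libraries 4 and 5 (over LCD KO 1 to 3, 6 and 7) differed from that in libraries 1 to 3 (over LCD KO 4 and 5) in 16 of these genes, at an adjusted p below 0.05 in edgeR. The difference of log2 fold changes was positive for Thrsp (8.27), Folr2 (8.15), Defb8 (7.78), Dnm3 (7.67), Rhbdf1 (5.10), H2-Aa (4.91) and Tbx19 (4.18), all genes that were lower in batch 2. It was negative for Slc17a6 (-11.18), Sec1 (-5.62), Scimp (-4.90), Art4 (-4.57), Eva1c (-3.71), Rnf169 (-3.38), Qpct (-3.34), Tuba3b (-2.36) and Rpl23 (-1.57), all genes that were higher in batch 2. The genes were chosen on the batch 2 effect, which enters each difference, and differences between the LCD KO libraries of different batches enter it too.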

How the results depend on the processing

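The count of 256 genes (150 higher, 106 lower) was 101 (62 and 39) with only the 5 libraries of the contrast in the fit, 123 (77 and 46) with HD mutant 1 to 5 against LCD KO 4 and 5 and batch ignored, 303 in DESeq2, 350 without the filter and 246 to 263 in the other fits. Leaving out 1 library gave 77 to 265 genes (37 to 155 higher, 40 to 110 lower). For HD mutant 4 and 5 against the other LCD KO libraries, 3101 genes were called, and 1686 to 3549 with 1 library left out, lowest without HD mutant 5. The share of higher genes with the same sign there was 61.3% to 74.3% with 1 library left out and 76.8% with only the libraries of each contrast; the share of lower genes was 65.0% to 71.0%. The median of the genes lowered in LCD KO was 0.00 to 0.11 and that of the raised genes -0.05 to 0.07 with 1 library left out. With LCD KO genes chosen with replicate block it was -0.0537 for lowered and 0.11 for raised genes, and at 2-fold 0.23 and -0.09. HD mutant 1 to 3 and LCD KO 4 and 5 share no replicate number, so the main contrast could not be paired. The list members called were 8, and 7 without HD mutant 1.

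Signs turned only in genes that were not called: Tet3 (0.0976) and Tnc (-0.645) without HD mutant 1, Tnc (-0.065) without LCD KO 4, Zfp804b (0.155) and Zfr2 (9e-04) without LCD KO 5, and Zfr2 (0.0698) with additive group and batch terms. With 1 library left out these ranged from -0.466 to 0.0976 for Tet3, -0.645 to 0.934 for Tnc, -1.52 to 0.155 for Zfp804b and -0.66 to 9e-04 for Zfr2. Of the 38 called genes named in the report, calls were lost for 17 without LCD KO 4 and 14 without LCD KO 5, among them Thrsp, Mael and Slc17a6 in both, for 13 with only the contrast's libraries, 6 in DESeq2, 5 with additive terms, 5 each without HD mutant 2 and 3, and 2 (Cdkn1a, Trim30d) without HD mutant 1. Genes that left the test with the filter are not in these counts: Rab17 and Il1f9 with only the contrast's libraries, Sec1 and Slc22a22 without HD mutant 3, Cyp2c55 without LCD KO 4 and Rab17 without LCD KO 5. The causes were not tested.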
